A study of Nicotiana tabacum with 12 samples.

Results

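LOB domain-containing protein 40-like (LOC107799348) and basic leucine zipper 61-like (LOC107777300) are 2 transcription factor genes of tobacco (Nicotiana tabacum), chosen by identifier from the 45034 genes of the deposited tables. They were picked because the difference between induced and control seedlings changed sign between 4 h and 48 h, downward then upward for the LOB gene and upward then downward for the bZIP gene. Those differences therefore describe the choice, and no test is attached to them.

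LOB domain proteins are a plant family of DNA-binding factors named after LATERAL ORGAN BOUNDARIES, with a cysteine-rich block at the start of the domain. In thale cress the close relatives of LBD40 belong to class II of the family, whose best studied members LBD37, LBD38 and LBD39 repress nitrate-response and anthocyanin genes. bZIP proteins bind DNA through a basic region and pair through a leucine zipper. In thale cress bZIP61 belongs with bZIP34 to group E, whose zipper holds a proline that hinders pairing with itself, so that these factors are known to pair with bZIPs of other groups.

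The libraries came from polyadenylated RNA of the aerial parts of seedlings of the cultivar Petit Havana (SR1). According to the protocols, stable transformants were made and seeds of the T2 generation were grown with or without β-estradiol, which switches on AmMIXTA, a MYB gene of snapdragon known for shaping petal epidermal cells, so that control and induced seedlings alike come from transformed lines. The study asked how secreting hairs (glandular trichomes) start on cotyledons, which normally bear none. Control (non-induced) and induced seedlings were taken at 4 h, at 7 days of age, and at 48 h, at 9 days of age, with 15 seedlings pooled per collection and 3 libraries in each of the 4 groups. The protocol also speaks of growth with β-estradiol for the whole 7 days, so how long seedlings had been exposed at the labelled 4 h and 48 h is not clear from the labels. Age and time since induction cannot be told apart between the times, and neither AmMIXTA itself nor seedlings that had the agent but no transgene were analysed here. The number of transformed lines behind the seeds is not given in the sources used here.

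The deposited values are read counts divided by a factor of each library, with 1 factor set for each time, so they are compared within a time only. At 48 h the reads of control replicates 2 and 3 were the same in all 42659 genes, so the pair was counted as 1 sample, which leaves 2 control libraries there and 11 libraries in all. The libraries held 12457701 to 30103266 recovered reads, apart from control replicate 1 with 917871 at 4 h and 1240033 at 48 h, called the shallow control below. These totals leave out 4 genes at 4 h and 14 at 48 h with inflated entries. Those genes held 43.0% and 40.1% of all reads in control replicates 1 and 2 at 4 h and at most 0.105% in the other libraries of that time. At 48 h they held 2.70% and 69.3% in the 2 controls and 24.2% to 69.3% in the induced libraries. All 9 plastid photosynthesis genes looked for as a check of green tissue were detected in every library, with at least 29 reads each. Nothing in the labels says that the replicates were separate cultures, so the p-values measure the spread between these libraries, which may be technical. In whole aerial parts, fewer cells that express a gene and less RNA per cell cannot be told apart.

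At 4 h LOB 40-like was lower in induced seedlings. Its normalised values were 2.09, 2.45 and 2.29 in the 3 control libraries. The 3 induced libraries were at 0.526, 0.854 and 0.42. The groups did not overlap, and every induced library lay below the lowest control. The mean went from 2.28 ± 0.18 to 0.6 ± 0.227 (SD, n = 3 per group), a 3.79-fold lower level, and the log2 difference on the log2(value + 0.5) scale was -1.35 (SE 0.23).

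The reads behind these values were few. The deeper controls held 76 and 89 reads of LOB 40-like at 4 h and the induced libraries 22, 40 and 14. The shallow control held 3 reads, and an exact Poisson interval of 95% around them, which covers counting error only, runs from 0.431 to 6.11 in normalised value. That interval includes all the induced libraries except the 1 with 14 reads, so the separation at 4 h rests on the deeper controls. The gene passed the filter on low values at 4 h only through its 3 controls, so it had no value when any 1 of them was left out.

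At 48 h the order was the opposite. LOB 40-like stood at 1.4 in the shallow control and 0.74 in the deeper control, against 2.63, 2.25 and 2.07 in the induced libraries. Again the groups did not overlap. The mean went from 1.07 ± 0.466 (SD, n = 2) to 2.32 ± 0.283 (SD, n = 3), a 2.17-fold higher level and a log2 difference of 0.87 (SE 0.21). The shallow control held 5 reads (exact Poisson interval 0.454 to 3.26 in normalised value) and the deeper control 28, while the induced libraries held 84, 100 and 136. Without the deeper control, control replicate 2, the log2 difference was 0.56, and without the shallow control it was 1.18.

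The bZIP gene moved the other way round. At 4 h the controls of bZIP 61-like had normalised values of 5.57, 7.57 and 6.58, and its induced libraries 11.5, 14.2 and 9.74, with no overlap. Its mean went from 6.57 ± 0.999 to 11.8 ± 2.23 (SD, n = 3 per group), 1.79-fold higher, with a log2 difference of 0.79 (SE 0.14). It was the better measured gene of the pair, with 235 and 256 reads in the deeper controls and 480, 663 and 325 in the induced libraries, against 8 in the shallow control (exact Poisson interval 2.41 to 11 in normalised value).

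At 48 h bZIP 61-like was at 3.92 in the shallow and 3.7 in the deeper control, against 2.6, 2.45 and 1.98 in the induced libraries. Each induced library lay below both controls. The mean went from 3.81 ± 0.153 (SD, n = 2) to 2.34 ± 0.322 (SD, n = 3), 1.62-fold lower, and the log2 difference was -0.60 (SE 0.17). The reads were 14 and 140 in the controls and 83, 109 and 130 in the induced libraries.

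To set the times side by side, the recovered reads of all libraries were scaled together to CPM, a gene's reads relative to the scaled total of its library, by the trimmed mean of M-values (TMM). On that scale the control level of LOB 40-like hardly differed between the times. It was 3.21, 3.67 and 3.43 CPM at 4 h and 3.97 and 2.09 CPM at 48 h, so the later controls lay on either side of the earlier ones. The induced libraries were at 0.792, 1.28 and 0.63 CPM at 4 h and at 7.45, 6.39 and 5.89 CPM at 48 h, with no overlap. From low to high the mean levels were 0.902 ± 0.34 CPM (induced, 4 h, n = 3), 3.03 ± 1.33 CPM (control, 48 h, n = 2), 3.44 ± 0.232 CPM (control, 4 h, n = 3) and 6.58 ± 0.798 CPM (induced, 48 h, n = 3). The 2 control groups did not differ beyond their spread.

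bZIP 61-like gave the reverse order. Its controls were at 8.55, 11.4 and 9.88 CPM at 4 h and at 11.1 and 10.5 CPM at 48 h, and these ranges overlapped. Its induced libraries were at 17.3, 21.3 and 14.6 CPM at 4 h and at 7.36, 6.96 and 5.63 CPM at 48 h, with no overlap. The mean levels rose from 6.65 ± 0.908 CPM (induced, 48 h, n = 3) through 9.93 ± 1.4 CPM (control, 4 h, n = 3) and 10.8 ± 0.459 CPM (control, 48 h, n = 2) to 17.7 ± 3.35 CPM (induced, 4 h, n = 3). For both genes the induced groups were thus the outer levels and the controls the inner ones.

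**Figure D1:**
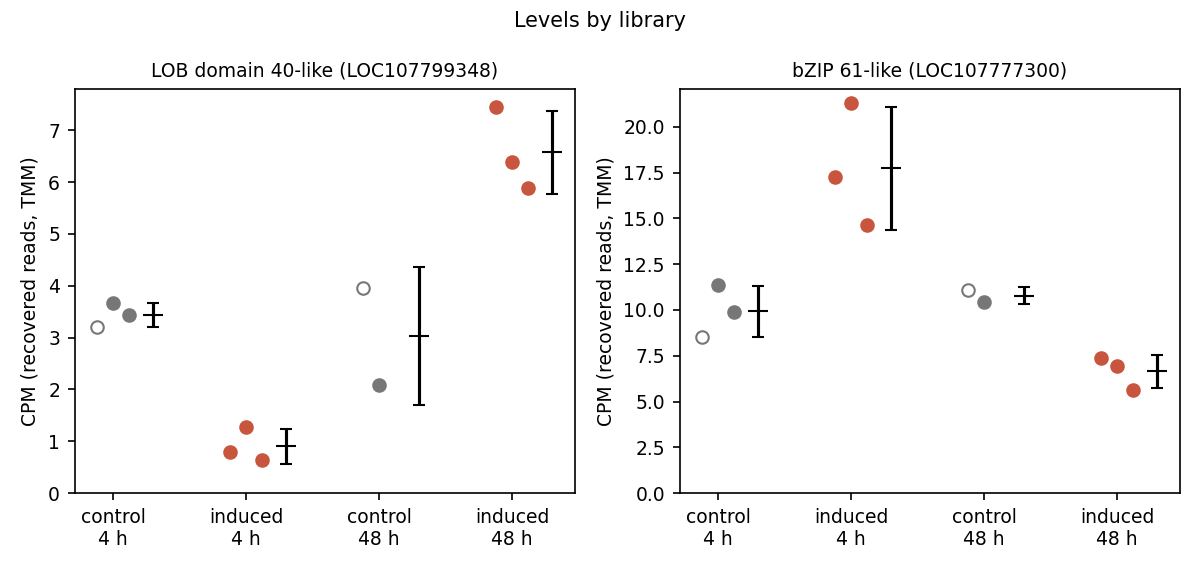
Levels of LOB 40-like (left) and bZIP 61-like (right) in CPM of recovered reads scaled by TMM, on linear axes from 0. Each point is 1 library, control in grey and induced in red, open points are the shallow controls, and the bar beside each group is its mean with the SD (n = 3, and n = 2 for control at 48 h). Controls overlap between the times in both panels, while the induced libraries of LOB 40-like are lowest at 4 h and highest at 48 h and those of bZIP 61-like are highest at 4 h and lowest at 48 h.

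Between the times, the mean log2 CPM of LOB 40-like changed by -0.21 in control and by 2.36 in induced libraries, and that of bZIP 61-like by 0.12 in control and by -1.34 in induced libraries. In a fit of both times together, the induction effect at 48 h minus that at 4 h was 2.57 (SE 0.36) for LOB 40-like and -1.46 (SE 0.23) for bZIP 61-like on the log2 scale. These differences are what chose the genes and were not tested. Across the 11 libraries the log2 CPM of the 2 genes had a Pearson correlation of -0.86, and of -0.88 over the 9 libraries without the shallow controls, a sign that the choice of the pair largely fixes.

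A measure that the choice did not use directly was the change over time averaged over control and induced libraries. The fit made its error independent of those of both induction effects. Its value still holds the induced libraries, so the change of sign that chose the genes pushes it up for LOB 40-like and down for bZIP 61-like. The p-values below are therefore not independent evidence about the pair. This average asked whether all libraries at 48 h, control and induced together, differed from those at 4 h. Control levels of both genes overlapped between the times, so a call is not a change seen in control seedlings. By limma across 41261 genes, LOB 40-like was higher at 48 h (log2 change 1.18, SE 0.18, adjusted p = 1.66e-05 with Benjamini-Hochberg adjustment) and bZIP 61-like was lower (log2 change -0.68, SE 0.12, adjusted p = 7.5e-05). Such calls were common, since 25.9% of all genes passed the threshold, 12.3% higher and 13.6% lower, so a call in 2 of 2 genes says little about the pair. In size, 1.66% of all genes rose by at least as much as LOB 40-like and 4.67% fell by at least as much as bZIP 61-like. The averages come from the induced libraries in the main, as the control changes above show, and with control and induced weighted equally, an alternative added after the values were seen, they were 1.07 and -0.61. The equally weighted averages also share error with the induction effect at 48 h that chose the genes, so no test is attached to them.

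Against all genes, the induction differences of the pair were large, as the way they were chosen implies. At 4 h 32 of 37238 genes had a log2 difference at least as low as that of LOB 40-like (0.0859%), and 66 one at least as high as that of bZIP 61-like (0.177%). At 48 h 92 of 31565 genes had one at least as high as that of LOB 40-like (0.291%) and 177 one at least as low as that of bZIP 61-like (0.561%). For orientation, limma called 0.352% of genes at 4 h (131 genes, and 376 with libraries paired by number), 0.0967% as higher and 0.255% as lower. At 48 h it called 0.0127% (4 genes, and 478 when paired, where 2 pairs remain), 0.0095% as higher and 0.00317% as lower. Leaving out the shallow control gave 85 calls at 4 h. Leaving out induced replicate 2 or 3 at 48 h gave 46 and 63.

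Of the 31383 genes tested at both times, 186 (0.593%) were lower without overlap at 4 h and higher without overlap at 48 h, as LOB 40-like was, and 219 (0.698%) were higher and then lower, as bZIP 61-like was. A further 203 (0.647%) were higher at both times and 133 (0.424%) lower at both. Ordered by the distance between the log2 differences at the 2 times, LOB 40-like was number 4 of the 186 and bZIP 61-like number 3 of the 219. Groups did not overlap in the higher direction in 5.45% of genes at 4 h and 12.4% at 48 h, and in the lower direction in 4.95% and 8.94%.

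**Figure D2:**
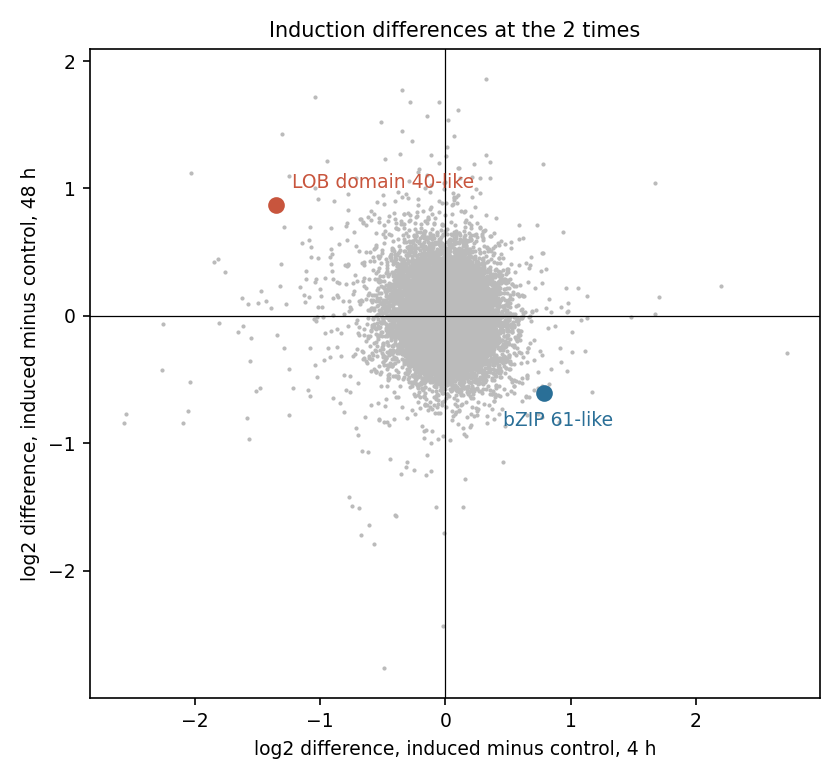
Log2 difference between induced and control seedlings at 4 h (horizontal) and 48 h (vertical) for the 31383 genes tested at both times, 1 grey point per gene, on the log2(value + 0.5) scale. LOB 40-like (red, -1.35 and 0.87) lies far out at the upper left and bZIP 61-like (blue, 0.79 and -0.60) at the lower right.

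Named genes share these crossing patterns, listed here after their values were seen. Descriptions such as those below come from the tables of higher genes that the authors deposited, so a gene with one had been selected for a rise at 1 of the times. Of the 186 genes, 21 had a name. Next to LOB 40-like in size were chaperone protein dnaJ 11-like (LOC107759587), with log2 differences of -0.91 at 4 h and 0.53 at 48 h, a 2-oxoisovalerate dehydrogenase subunit of branched-chain amino acid breakdown (LOC107800508, -0.62 and 0.78), and the wall-loosening expansin-A10-like (LOC107792895, -0.57 and 0.53). Of the 219 genes, 19 had a name. Cytochrome P450 85A1 (LOC107760973), an enzyme of the last steps of brassinosteroid synthesis, had 0.74 at 4 h and -0.77 at 48 h. Zinc finger protein 8-like (LOC107828820), related to trichome regulators of thale cress, had 0.77 and -0.55, and PHYTOCHROME KINASE SUBSTRATE 3-like (LOC107815731), a relative of light-signalling proteins, had 0.74 and -0.56.

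The genes whose profiles were most like those of the pair were taken by Pearson correlation of log2(CPM + 0.5) over the 11 libraries, among 41261 genes. The points share their libraries, their depth and the induction pattern, so the correlations are descriptions without a test. For LOB 40-like the 5 closest, LOC107828991 (r = 0.95), LOC107795830 (r = 0.95), LOC107808783 (r = 0.93), LOC107788519 (r = 0.93) and LOC107777349 (r = 0.93), have no name here. They moved less than LOB 40-like did, with log2 differences of -0.32 to -1.16 at 4 h and 0.13 to 0.53 at 48 h. The most opposite were cyclin-U4-1-like (LOC107811449, r = -0.94), of a family of cell cycle-related proteins, and aspartic proteinase PCS1-like (LOC107786388, r = -0.94), followed by LOC107775672 (r = -0.93), LOC107803674 (r = -0.92) and LOC107830188 (r = -0.91).

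For bZIP 61-like the closest 5 were again unnamed, LOC107810532 (r = 0.96), LOC107806591 (r = 0.96), LOC107793082 (r = 0.96), LOC107761719 (r = 0.96) and LOC107832391 (r = 0.96). Their mean levels were 29.6 to 41.8 CPM in control and 43.9 to 52.1 CPM in induced libraries at 4 h, and 30.3 to 37.5 CPM and 20.7 to 29.6 CPM at 48 h. The most opposite were the mitochondrial gene ccmC (r = -0.96), needed to attach haem to cytochrome c, LOC107804493 (r = -0.94), LOC107823752 (r = -0.94), LOC107800693 (r = -0.94) and the cystatin gene Nt-CYS (LOC107812029, r = -0.92), an inhibitor of cysteine proteases.

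Among genes with a description, a choice added after the values were seen, the closest to bZIP 61-like were cytochrome P450 85A1 (LOC107760973, r = 0.94), aspartic proteinase PCS1-like (LOC107786388, r = 0.94) and cytochrome P450 85A1-like (LOC107776096, r = 0.93). The first of these went from a mean of 6.08 CPM in control to 10.6 CPM in induced libraries at 4 h, and from 5.39 to 2.65 CPM at 48 h. The most opposite was NAC domain-containing protein 72-like (LOC107765862, r = -0.89), of a family known in thale cress for drought and abscisic acid responses, at 32.1 CPM in control and 14.1 CPM in induced libraries at 4 h and at 60.8 and 117 CPM at 48 h. PCS1-like was thus close to bZIP 61-like and opposite to LOB 40-like.

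**Figure D3:**
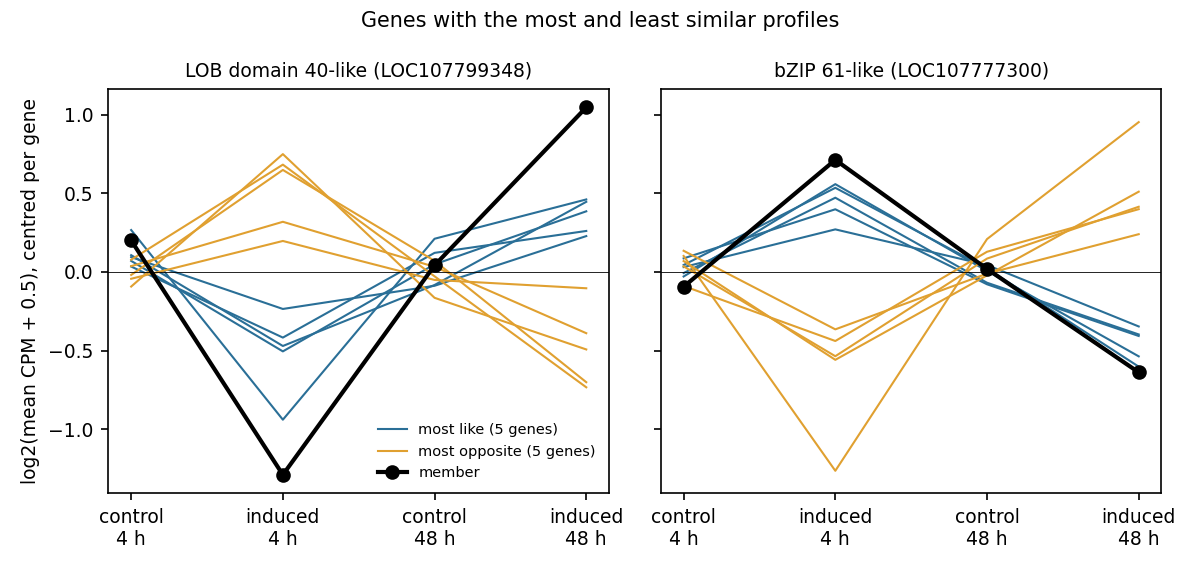
Profiles over the 4 groups of LOB 40-like (left) and bZIP 61-like (right) in black, of the 5 genes of highest correlation with each in blue and of the 5 of lowest correlation in orange. The vertical axis is log2(mean CPM + 0.5) centred on each gene's mean over the groups, and the lines join group means. The genes like LOB 40-like dip at 4 h of induction by less than it does, and those like bZIP 61-like peak there and are lowest at 48 h of induction.

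The other LOB genes named had levels at 4 h that overlapped between control and induced libraries. The files name 3 LOB genes, each listed as higher at 48 h in the authors' deposited table, so their rise at that time is not independent evidence. LOB domain-containing protein 41-like (LOC107811176), whose counterpart in thale cress is also of class II, had 1.18 ± 0.123 CPM in control and 1.12 ± 0.582 CPM in induced libraries at 4 h (SD, n = 3 per group), and 2.16 ± 0.31 CPM (n = 2) and 4.79 ± 1.49 CPM (n = 3) at 48 h. LOB domain-containing protein 1-like (LOC107801705), of class I in thale cress, had 0.607 ± 0.488 and 0.554 ± 0.223 CPM at 4 h and 1.2 ± 0.541 and 2.44 ± 0.622 CPM at 48 h. Both were too low for the test at 4 h. At 48 h LOB 41-like had a log2 difference of 0.76 (SE 0.24). It passed the filter there only through its induced libraries, since both controls were under a value of 1, and it was already selected as higher at 48 h, so nothing is read from its test.

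Over time all 3 LOB genes were higher at 48 h, against 12.3% of all genes. Higher induced libraries at 48 h raise the average of that time, and all 3 genes were listed by the authors for this. The count is therefore not independent evidence about the family. The log2 change was 1.29 for LOB 41-like (SE 0.22, adjusted p = 6.71e-05 by limma) and 1.17 for LOB 1-like (SE 0.26), beside the 1.18 of LOB 40-like. The median over all genes was -0.01. LOB 1-like passed the filter of this fit only through its induced libraries at 48 h, so nothing is read from its tests. In control libraries LOB 41-like had a log2 change of 0.66 and LOB 1-like of 0.69, whereas that of LOB 40-like was -0.21. The effect at 48 h minus that at 4 h was 1.08 for LOB 41-like (adjusted p = 0.675 by limma), not past the threshold. For LOB 1-like it was 0.79, given without a test.

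Among bZIP genes, 4 are named as such in the files. Of the 3 besides bZIP 61-like, all tested at 4 h and 2 at 48 h, none was called for induction at either time, with or without pairing of the libraries by number. The authors' deposited tables list 1 of the 4 as higher at 4 h and 2 as higher at 48 h. bZIP transcription factor 17-like (LOC107785821), whose counterpart in thale cress acts in salt and endoplasmic reticulum stress, had 5.48 ± 1.41 CPM in control and 5.97 ± 1.21 CPM in induced libraries at 4 h (SD, n = 3 per group), and 2.86 ± 0.448 CPM (n = 2) and 4.77 ± 0.807 CPM (n = 3) at 48 h. Averaged over control and induced libraries it fell over time (log2 change -0.49, adjusted p = 0.0215 by limma). It changed by -0.81 in control libraries (no overlap) and by -0.29 in induced ones (overlap). The fall of bZIP 61-like was made up otherwise, with 0.12 in control and -1.34 in induced libraries. The call of bZIP 17-like ended without control replicate 1 at 48 h (-0.42), control replicate 2 at 48 h (-0.36) or induced replicate 1 at 4 h (-0.42), without both shallow controls (-0.39), and by DESeq2 (-0.54). LOC107766940, with bZIP as its alias, had a log2 change of 0.91 (adjusted p = 0.0463 by limma), a call that 13 of 22 alternatives ended. Among these were leaving out control replicate 1 (0.89) or 2 (0.79) at 4 h, induced replicate 1 (0.95), 2 (0.88) or 3 (0.94) at 4 h, control replicate 2 (1.02) at 48 h and induced replicate 1 (0.90) at 48 h. bZIP transcription factor 53-like (LOC107818886), a group S factor in thale cress known for seed maturation and amino acid genes, had a log2 change of -0.34 over time (adjusted p = 0.229 by limma).

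A further 6 tobacco bZIP genes go by other names and were added after the values were seen, and 2 of them are listed as higher at 48 h by the authors' deposited table. None was called for induction at either time in the unpaired fit, with log2 differences of -0.15 to 0.17 at 4 h and 0.04 to 1.57 at 48 h. With libraries paired by number, where 1.51% of all genes were called at 48 h, 2 of the 6 were called higher at 48 h and none at 4 h. These were the TAF-1-like genes LOC107824425 (log2 difference 1.56, adjusted p = 4.79e-09 by limma, against 0.329 unpaired) and LOC107806524 (0.94, adjusted p = 0.000112 by limma, against 0.175 unpaired). They are the same 2 genes that the authors list as higher at 48 h from these libraries. Neither their paired calls nor their rise over time is therefore independent evidence. Both TAF-1-like genes, relatives of a G-box binding activator of tobacco, rose over time, LOC107806524 by a log2 change of 2.27 (adjusted p = 7.01e-05 by limma) and LOC107824425 by 1.41 (adjusted p = 0.00231 by limma). LOC107824425 went from 2.79 ± 0.934 CPM in control and 2.54 ± 1.39 CPM in induced libraries at 4 h (SD, n = 3 per group) to 3.36 ± 0.85 CPM (n = 2) and 13.5 ± 6.04 CPM (n = 3) at 48 h, and LOC107806524 from 1.84 ± 1.05 and 1.87 ± 0.872 CPM to 6.67 ± 0.665 and 13.7 ± 3.96 CPM. The TGA2.1 and TGA2.2 genes of salicylic acid responses, BZI-1 and the gibberellin regulator RSG were not called over time. RSG (LOC107816084) had log2 differences of -0.13 at 4 h and 0.29 at 48 h, without overlap at either time, the same signs as LOB 40-like at a smaller size.

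**Figure D4:**
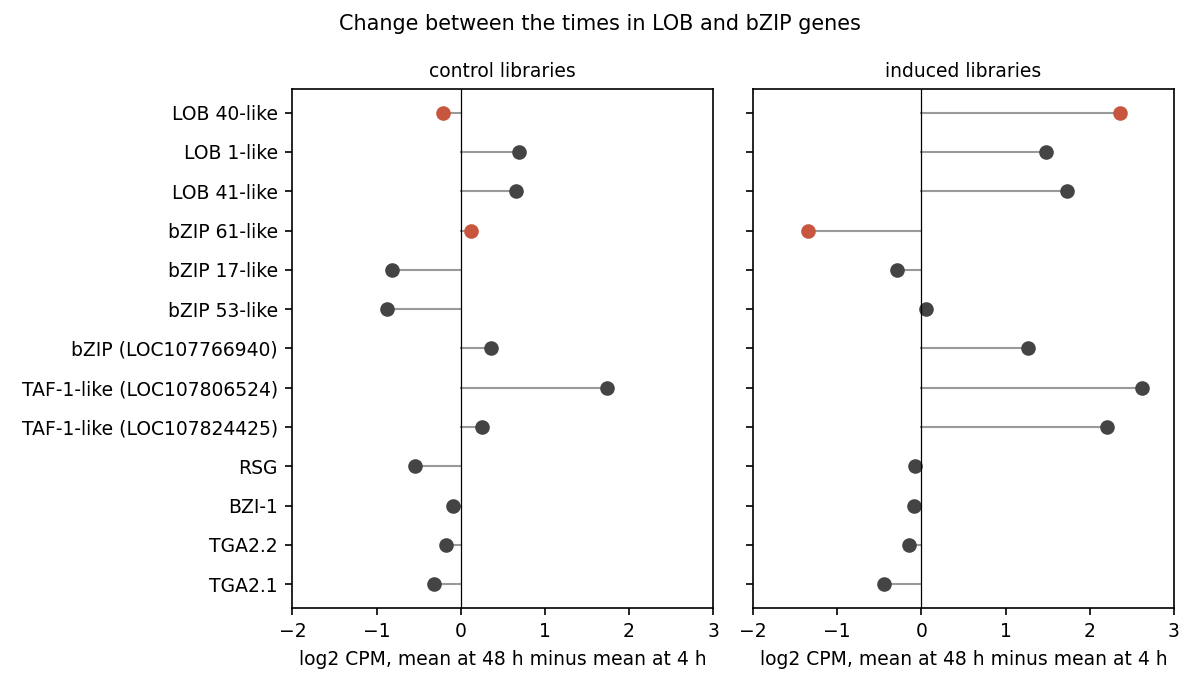
Change between the times in mean log2 CPM for 3 LOB and 10 bZIP genes, in control libraries (left, 3 at 4 h and 2 at 48 h) and in induced libraries (right, 3 at each time). LOB 40-like and bZIP 61-like are in red. In control libraries both red points lie near 0 (-0.21 and 0.12), and in induced libraries LOB 40-like is at 2.36 and bZIP 61-like at -1.34, the lowest of the genes shown.

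Genes of the pathways on which class II LOB proteins act in thale cress were followed by name. Of 7 nitrate transport and reduction genes, none was called at 4 h (median log2 difference -0.05, against 0.02 over all genes), and of the 6 tested at 48 h none was called (median -0.25, against 0.02). With 0.352% and 0.0127% of all genes called at these times, counts of 0 say nothing about the list. With libraries paired by number, 2 of the 6 were called at 48 h, NRT1/ PTR FAMILY 1.2-like (LOC107795252) as higher (log2 difference 0.78, adjusted p = 0.0112 by limma, against 0.415 unpaired) and NIA2 (LOC107785409) as lower (-0.33, adjusted p = 0.0356 by limma, against 0.981 unpaired). The nitrate reductase genes NIA2 and NIA1 (LOC107823732), which turn nitrate into nitrite, had log2 differences of -0.05 and -0.13 at 4 h. Over time 2 of the 7 rose and 1 fell, beside 12.3% and 13.6% of all genes. Those that rose were NRT1/ PTR FAMILY 4.6-like (LOC107760674, log2 change 0.92, adjusted p = 1.65e-05 by limma) and NRT1/ PTR FAMILY 1.2-like (LOC107795252, 0.79, adjusted p = 0.0126 by limma), the second not past the threshold without induced replicate 3 at 48 h (0.65). The authors' deposited table lists both as higher at 48 h, so their rise is not independent evidence. The same holds for the paired call of NRT1/ PTR FAMILY 1.2-like at 48 h. NtNRT1.2-t (LOC107799198), a nitrate transporter gene, fell (log2 change -0.50, adjusted p = 0.000252 by limma). One flavonoid gene was named, CHI (LOC107801443), and its log2 differences of 0.77 at 4 h (adjusted p = 0.82 by limma) and -0.79 at 48 h (adjusted p = 0.973 by limma) missed the threshold. Paired by library number, where 1.01% of all genes were called at 4 h, CHI was called higher at 4 h (0.77, adjusted p = 0.0342 by limma) and not called at 48 h (-0.66, adjusted p = 0.0703 by limma).

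The 9 plastid photosynthesis genes had a median log2 difference of -0.53 at 4 h (-0.69 to -0.23) and 0.16 at 48 h (0.04 to 0.22), and none was called at either time, paired or not. Their share was taken of the recovered reads, without the genes of inflated entries. At 4 h it was 0.332% to 0.466% in control libraries, against 0.213% to 0.308% in induced ones. The genes left out held 43.0% and 40.1% of all reads in control replicates 1 and 2 at 4 h. Of all reads, the share in those controls would be lower, so the separation of the shares at 4 h depends on leaving these genes out. The deposited values do not change when genes are left out. In them all 9 genes were lower in induced libraries at 4 h without overlap, beside 4.95% of all genes. At 48 h the share of recovered reads was 0.37% to 0.422% in control against 0.371% to 0.472% in induced libraries. Over time 6 of the 9 rose, psbA, psbB, psbC, psbD, psaA and psaB, with a median log2 change of 0.38 over the 9, beside -0.01 over all genes, of which 12.3% rose. The calls of psbB, psbC and psbD held in all 22 alternatives. That of psbA ended in 7, among them without control replicate 3 or induced replicate 3 at 4 h, or control replicate 2 or induced replicate 3 at 48 h (0.59 to 0.66), and that of psaA in 2, among them without induced replicate 2 at 4 h (0.28). That of psaB ended in 13, among them without control replicate 3 or any induced library at 4 h, or control replicate 2 or any induced library at 48 h (0.23 to 0.40). LOB 40-like rose over time as well, and the part of these genes in its result was not tested.

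Genes beside the pair in the RefSeq order of protein-coding genes gave little to compare, since 3 of the 8 nearest, counting 2 on each side, are in the tables. The next gene on one side of LOB 40-like (LOC107799347) had log2 differences of -0.07 at 4 h and 0.05 at 48 h, and LOC107777037, second from bZIP 61-like, had -0.04 and 0.04. The groups overlapped at both times for both neighbours, and neither was called.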

How the data were processed

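The deposited values are a signal, per library, found from the values to be gene reads divided by a factor of that library. The authors set these factors separately for the 2 times. The deposited ratio columns equal mean induced over mean control values, a linear fold, and the deposited p-value columns were not used. edgeR is named in the submitters' processing notes, with no version. No source used here gives the aligner, counter or genome build. Dividing by each library's smallest value gave whole reads for 100% of values within 0.01. Entries above 5000 and over 20-fold above the gene's median marked 4 genes at 4 h and 14 at 48 h, which were left out.

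The members and lists were chosen with earlier results of these data known. The planned tests allowed for raw counts. Since the values are normalised, induction was fitted per time with limma (trend, robust) on log2(value + 0.5), for genes that reached a value of 1 in 3 or more libraries. Time changes and effect differences came from 1 fit on log2(CPM + 0.5) of recovered reads scaled by TMM, for genes at a CPM of at least 1 in 3 libraries, with induction centred within each time. Calls are at an adjusted p of 0.05 (Benjamini-Hochberg). The fits were tested on simulated data. The added 0.5 makes the log2 differences understate the change of low genes.

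Library numbers in the sample descriptions were checked as pairs. Deviations from group means of same-numbered libraries correlated at 0.16, 0.22 and 0.18 over 19703 genes at 4 h and at 0.54 and 0.47 over 11369 genes at 48 h. With 2 controls at 48 h their deviations mirror each other, so the 2 values there are not independent. The repeated control bears numbers 3 and 2 in the descriptions and was used as 3. Fits paired by number were run beside the unpaired ones, which gave the SEs and p-values unless pairing is named.

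Named genes were the pair, the LOB and bZIP genes, list genes called, and the 5 highest and 5 lowest correlations. Choice by protein similarity was not used here. Names came from 431 descriptions in the deposited tables and the RefSeq gene table of assembly ASM71507v2, which matched 39971 of 45034 genes. Alternatives were another pseudocount, filter, scaling, tool or block and leaving out each library. R 4.3.3, limma 3.58.1, edgeR 4.0.16, DESeq2 1.42.0 and matplotlib 3.10.9 were used.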

Additional observations from a re-analysis of the deposited data

Results flagged for a closer look

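The induction effect at 48 h minus that at 4 h was 2.57 on the log2 scale for LOB 40-like (LOC107799348) and -1.46 for bZIP 61-like (LOC107777300). Each stands out because every induced library lay on one side of the controls at 4 h and on the other at 48 h. The genes were chosen for this difference, and it was not tested.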

How the results depend on the processing

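The 2 genes had 141 values under alternative settings, and all 141 kept the sign of the reported value. Among the induction differences and the effects at 48 h minus those at 4 h, 15 moved by at least the spread between replicates, all of LOB 40-like (LOC107799348). Time changes were sorted by whether the call held and are not in that count. The time change of bZIP 61-like also moved beyond its spread between replicates (0.203), from -0.68 to as far as -0.91. The log2 difference of LOB 40-like at 4 h was -1.04 with a pseudocount of 1 and -1.81 with 0.1. It was -1.93 by edgeR, -1.94 by DESeq2 and -1.51 to -1.23 without single induced libraries. At 48 h the log2 difference of LOB 40-like was 1.45 by edgeR, 1.39 by DESeq2 and 0.56 to 1.18 without single libraries. Its effect at 48 h minus that at 4 h was 2.18 and 3.02 with the same pseudocounts, 3.38 by edgeR, 3.35 by DESeq2, 3.00 without both shallow controls (chosen after seeing the data) and 2.17 to 2.96 without single libraries. Its time change stayed called, at 0.97 to 1.43 (adjusted p at most 0.000299 by limma, edgeR or DESeq2), as did that of bZIP 61-like, at -0.91 to -0.54 (at most 0.00157). For the 15 other genes of the lists called over time, 289 of 330 values stayed past the threshold and all kept their sign.

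With a replicate block by library number, the time change was 1.18 for LOB 40-like and -0.67 for bZIP 61-like, and both stayed called. The block, read for the list genes after seeing the data, changed calls for induction among them, given beside those genes. Genes called at 4 h numbered 376 with that block, 242 blocked by title number and 52 with both times in 1 fit (added after seeing the data), against 131, and 85 to 156 without single libraries. At 48 h they numbered 478 and 144 with the blocks, 18 without the filter, 2 by edgeR, 13 by DESeq2 and 10 in 1 fit, against 4, and 3 to 63 without single libraries. The cause was not tested. Depth limits the precision of LOB 40-like, at 3 and 5 reads in the shallow controls.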
